A study of Mus musculus with 12 samples.

Results

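The genes described here are 42 targets, regulators and effectors of the p53 and DNA damage response, listed by name. The list was made with earlier results of these data known. A probe set that belongs to 1 gene was found for 41 of the 42 genes (66 of 22626 probe sets tested, among 12393 genes). Trp53 itself had no probe set assigned to it in the annotation used and was not analysed here. Each gene is represented by its brightest probe set.

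Affymetrix MOE430A arrays had been hybridised with RNA from mouse bone marrow cells sorted as GFP+, Sca-1+ and negative for lineage markers, a population enriched for stem and progenitor cells, from adult (C57Bl/6Ly-Pep3b×C3H/HeJ) F1 mice. Of the 4 groups with 3 arrays each, ND13 carried a retrovirus with the leukemic fusion NUP98-HOXD13, NA10 carried the engineered fusion NUP98-HOXA10, ND13(N51S) carried NUP98-HOXD13 with a homeodomain mutated so as not to bind DNA, and the GFP control carried the empty MIG vector. All 4 groups, the GFP control included, came from marrow exposed to 150 mg/kg 5-fluorouracil 4 days before harvest, were stimulated for 48 hours with interleukin-6, interleukin-3 and stem cell factor, and were infected over 2 days on irradiated producer cells, followed by 24 hours of culture. 5-fluorouracil blocks thymidylate synthesis and damages DNA, and no group came from undrugged marrow. The fusions were expressed from a retroviral vector, and the sorted cells were a pool of transduced cells.

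p53 is a transcription factor that is held at a low level by the ubiquitin ligase Mdm2 and its partner Mdm4. When kinases such as Atm and Atr sense broken or stalled DNA, p53 is stabilised and switches on genes that arrest the cell cycle, repair DNA, restrain growth signalling through mTORC1 or trigger apoptosis. In the blood system p53 governs the survival of stem and progenitor cells after DNA damaging treatment, and the human gene is mutated in some leukemias. Much of p53 control acts on the protein, which an array does not measure.

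Signals were MAS5 values on a linear scale, with the trimmed mean of each array near 500. An array's background was taken as the 95th percentile of its 27 bacterial control probe sets and lay between 28.5 and 69.8. Of the 41 genes, 35 were above background on all 12 arrays and 6 on some only, and the mean signals ran from 12.8 for Fas to 1919 for Sesn1, with a median of 392. In such bulk samples fewer cells of a type and less RNA per cell cannot be told apart. Alas2 of 6 erythroid markers, Pax5 and Ebf1 of 6 B cell markers and Cd4 and Cd2 of 6 T cell markers were not above background on any array. The other measured markers of these lists were above it on some or all arrays. None of 6 stem and progenitor markers, 8 neutrophil markers and 8 macrophage markers was below background throughout. The sum of the signals of the 8 macrophage markers ranged from 10190 to 15230 in ND13, from 7303 to 9090 in NA10 and from 9958 to 21100 in ND13(N51S), against 5384 to 10230 in the GFP control. The range of each fusion group overlapped that of the GFP control, and single macrophage markers are counted further below. The part of these cells in the results below was not tested. The probe sets for Hoxd13, Hoxa10 and Nup98 did not separate the groups carrying each construct, with Hoxd13 at 8.08 to 9.21 in ND13 and at 6.19 to 11.2 in the GFP control, so the arrays do not check the labels.

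A pair of arrays is in doubt. ND13(N51S) replicate 2 had a 3′ to 5′ ratio of 48.9 for Gapdh and of 9.09 for beta-actin, against at most 2.71 on the other 11 arrays. The array record of GFP control replicate 1 names the MIG vector, as its label does, but adds ND13 N51S and GFP- in brackets, so what was sorted for it is not settled. Both are kept in the main values, and the genes past a threshold are also given without them.

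No gene of the list changed at an adjusted p below 0.05 and 1.5-fold (limma, Benjamini-Hochberg adjustment over all 22626 probe sets) in any of the 6 comparisons. The smallest adjusted p among the 41 genes was 0.537 in ND13 against the GFP control, 1.0 in NA10 and 0.448 in ND13(N51S) against the GFP control, 0.245 in ND13 and 0.35 in NA10 against ND13(N51S), and 0.363 for both active fusions against both other groups. The same test called 0.0884% of all probe sets in ND13, 0.0133% in NA10 and 0% in ND13(N51S) against the GFP control, 0.0133% in ND13 and 0.00884% in NA10 against ND13(N51S), and 0.0354% with both active fusions pooled, so few genes of any kind passed. At an unadjusted p below 0.05 the number of list genes was 4, 1, 5, 5, 4 and 4 in the same order, beside 5.73%, 4.41%, 7.65%, 7.87%, 8.6% and 7.99% of all probe sets, and the methods' t-test called 0 in each after adjustment.

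The study's methods set their threshold at an unadjusted p below 0.05 with a change of 1.5-fold, and the counts that follow use it as a description. In ND13 against the GFP control 4 of 41 list genes were higher (3.43% of all probe sets) and 0 were lower (1.5%). In NA10 against the GFP control 1 was higher (2.51%) and 0 were lower (1.52%). In ND13(N51S) against the GFP control 2 were higher (4.37%) and 3 lower (2.48%). Against ND13(N51S), ND13 had 3 higher (3.2%) and 2 lower (3.78%), and NA10 had 2 higher (2.94%) and 2 lower (4.85%). With ND13 and NA10 set against the GFP control and ND13(N51S), 3 were higher (2.48%) and 0 lower (2.87%). The 3 were Plk3, Ddit4 (log2 change 0.72, unadjusted p = 0.00986) and Sesn2 (0.64, unadjusted p = 0.0144). Not all were raised by both fusions: against the GFP control Ddit4 changed by 1.06 in ND13 but -0.04 in NA10. Sesn2 changed by 0.16 and -0.0017 there, and by -1.12 in ND13(N51S). The 4 genes higher in ND13 are 9.76% of the list. Without both arrays in doubt these counts became 3 higher and 0 lower in ND13, 1 and 0 in NA10, and 1 and 0 in ND13(N51S) against the GFP control, 3 and 0 in ND13 and 1 and 1 in NA10 against ND13(N51S), and 3 and 0 with both fusions pooled. The genes were not all the same: in ND13 against the GFP control Cdkn1a and Plk2 no longer passed and Pmaip1 did (1.06, unadjusted p = 0.0459), and in NA10 Zmat3 no longer passed and Plk3 did (1.61, unadjusted p = 0.0164). No share of all probe sets is given without both arrays in doubt, here or for the lists below. Counts under that setting therefore have no background to be read against. The higher share of all probe sets past these thresholds depends on the scaling: it was 69.6% in ND13 and 63.8% in ND13(N51S) against the GFP control, 45.9% in ND13 and 37.8% in NA10 against ND13(N51S) and 46.3% with both fusions pooled, and with median centring it was 56.6%, 40.2%, 55.0%, 54.7% and 48.5% in that order. With quantile normalisation it was 63.2%, 50.8%, 52.8%, 51% and 56.5%.

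The centre of the list stayed near 0. The median log2 change over the 41 genes was -0.06 in ND13, -0.01 in NA10 and -0.08 in ND13(N51S) against the GFP control, beside 0.0128, -0.00468 and 0.0926 over all 12393 genes. Against ND13(N51S) it was 0.06 in ND13 and 0.08 in NA10, and with both fusions pooled it was 0.02, beside -0.0739, -0.0929 and -0.0371 over all genes. Changes under 1.5-fold were seen in 33, 37 and 31 of the 41 genes in the 3 comparisons with the GFP control. The replicates of a group differed by a median SD of 0.342 on the log2 scale, from 0.139 for Trp53inp1 to 1.42 for Gadd45g.

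**Figure D1:**
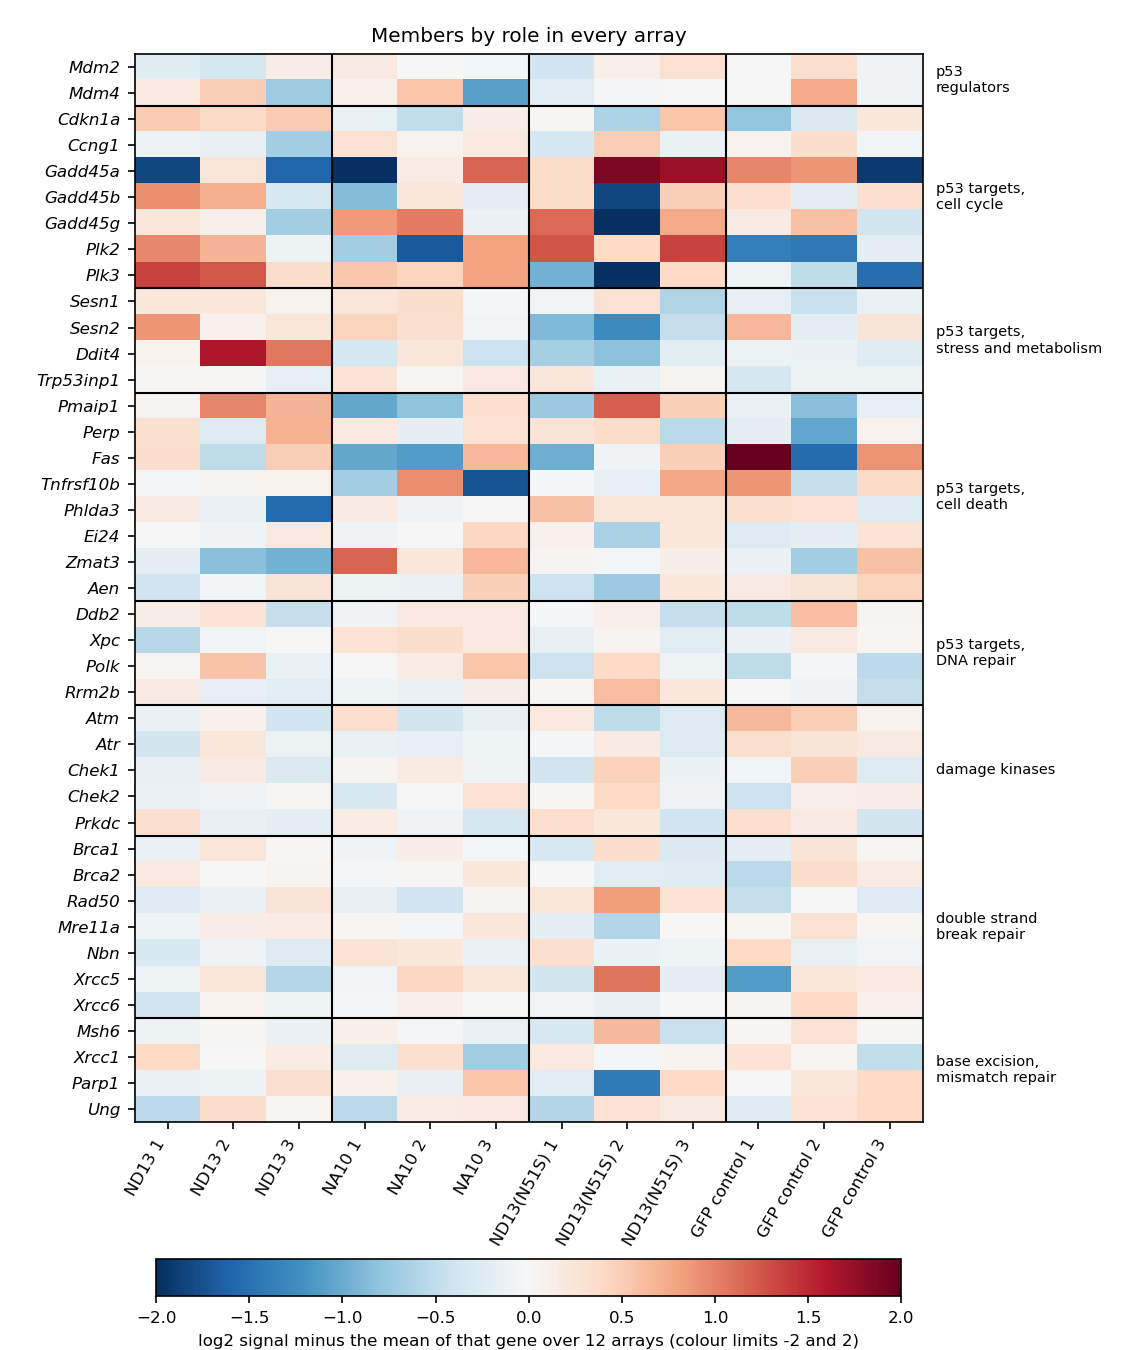
Log2 signal of each of the 41 genes in each of the 12 arrays (columns, 3 per group), minus that gene's mean over all arrays, with genes as rows grouped by role. Ddit4 stands out in ND13 replicates 2 and 3, Sesn2 is below its mean on all 3 ND13(N51S) arrays, and most repair genes stay near 0 outside ND13(N51S) replicate 2.

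The first group of genes holds p53 in check. Mdm2, the ligase that degrades p53 and is itself a p53 target, had signals of 410, 382 and 534 in ND13, of 552, 491 and 473 in NA10 and of 374, 522 and 597 in ND13(N51S), against 485, 616 and 465 in the GFP control. The groups overlapped throughout. The log2 changes against the GFP control were -0.24 ± 0.23 (SE) in ND13, -0.04 ± 0.23 in NA10 and -0.08 ± 0.23 in ND13(N51S). Mdm4, which binds p53 without degrading it, gave changes of -0.24, -0.38 and -0.31 with an SE of 0.41. A second Mdm2 probe set gave 0.01, 0.03 and 0.14.

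Among the growth and stress targets, the genes Ddit4, Sesn1 and Sesn2 encode inhibitors of mTORC1, the kinase complex that drives protein synthesis and cell growth. Trp53inp1, a stress-induced gene that adds to p53's effect on apoptosis, is the fourth of this role. In ND13 this role had a median log2 change of 0.28 against the GFP control and of 0.78 against ND13(N51S), in NA10 of 0.17 and 0.34. The groups' order differs by gene, as follows.

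Ddit4, also known as Redd1, had signals of 472, 1382 and 942 in ND13, of 353, 528 and 334 in NA10 and of 284, 256 and 390 in ND13(N51S), against 421, 419 and 381 in the GFP control. All 3 ND13 arrays lay above every ND13(N51S) and GFP control array, with ND13 replicate 1 close to them, while NA10 overlapped both. Ddit4 was 2.09-fold higher in ND13 than in the GFP control (log2 change 1.06 ± 0.34, unadjusted p = 0.00767, limma adjusted p = 0.537). It was 2.79-fold higher in ND13 than in ND13(N51S) (1.48 ± 0.34, unadjusted p = 0.000729), with the smallest adjusted p of any list gene at 0.245 (limma). With the replicate number as a block the adjusted p of that comparison was 0.0994 (limma). Without both arrays in doubt the 2 log2 changes were 1.09 and 1.35. The difference from ND13(N51S) passed the unadjusted thresholds whichever array was left out, and that from the GFP control did not without ND13 replicate 2 (0.71, unadjusted p = 0.0514). In NA10 the change against the GFP control was -0.04 ± 0.34.

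Sesn2 had signals of 345, 198 and 219 in ND13, of 256, 234 and 180 in NA10 and of 101, 77.4 and 135 in ND13(N51S), against 296, 163 and 224 in the GFP control. Every ND13(N51S) array lay below every array of the other groups, and those overlapped one another. Sesn2 was lower in ND13(N51S) than in the GFP control, with a log2 change of -1.12 ± 0.32 (unadjusted p = 0.00381, limma adjusted p = 0.448). It was 2.42-fold higher in ND13 than in ND13(N51S) (1.27 ± 0.32, limma adjusted p = 0.301) and 2.17-fold higher in NA10 than in ND13(N51S) (1.12 ± 0.32, limma adjusted p = 0.35). The log2 changes of ND13 and NA10 against the GFP control were 0.16 and -0.0017. These 3 differences passed the unadjusted thresholds whichever single array was left out, but without both arrays in doubt the change in ND13(N51S) against the GFP control was -0.71 and no longer passed (unadjusted p = 0.0644), while ND13 and NA10 against ND13(N51S) gave 1.08 and 0.92 and passed. A dimmer second probe set of Sesn2, with a mean signal of 69.1, did not show it, with a change of 0.25 in ND13(N51S) against the GFP control (unadjusted p = 0.757).

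Sesn1 was the brightest gene of the list and is one that the study itself picked out from these arrays, so its direction is no independent evidence. Its signals were 2188, 2210 and 1981 in ND13, 2223, 2406 and 1825 in NA10 and 1821, 2322 and 1247 in ND13(N51S), against 1689, 1390 and 1723 in the GFP control. All arrays of ND13 and NA10 lay above all GFP control arrays, and ND13(N51S) overlapped both sides. The changes against the GFP control were 0.41 ± 0.22 in ND13 and 0.42 ± 0.22 in NA10, under 1.5-fold, and 0.13 ± 0.22 in ND13(N51S). Its other probe sets gave 0.83 and 0.67 in ND13, 0.76 and 0.66 in NA10, and 0.27 and -0.21 in ND13(N51S). Against the GFP control only the dimmest of the 3 probe sets passed the unadjusted thresholds, in ND13 (unadjusted p = 0.0283) and in NA10 (unadjusted p = 0.0303), and the other 2 shared its direction there. The dimmest also passed as higher in ND13 (0.88, unadjusted p = 0.00655) and in NA10 (0.87, unadjusted p = 0.00702) than in ND13(N51S). The brightest gave 0.29 and 0.30 there and the middle one 0.55 and 0.485, none past both thresholds. With both fusions pooled, the dimmest (0.773, unadjusted p = 0.00147) and the middle one (0.655, unadjusted p = 0.034) passed. The brightest, at 0.355, stayed under 1.5-fold. Relative to the GFP control, Trp53inp1 changed by 0.14 in ND13, 0.35 in NA10 and 0.23 in ND13(N51S), with an SE of 0.21.

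**Figure D2:**
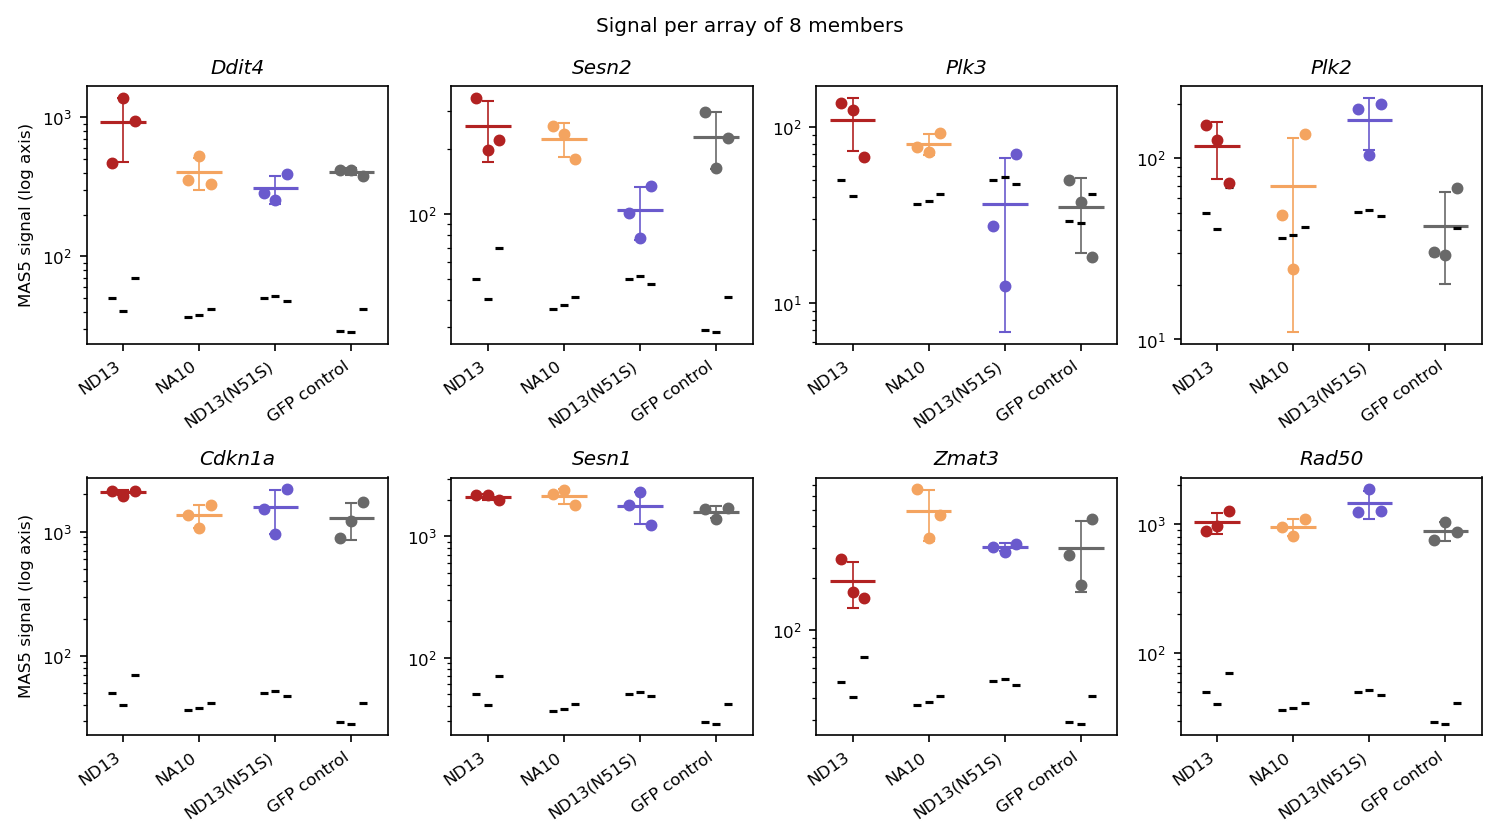
MAS5 signal (log axis) of 8 genes in every array, with points for arrays, a horizontal bar and whiskers for the mean ± SD of each group (n = 3), and short black dashes for each array's background. Ddit4 is high in ND13, Sesn2 is low in ND13(N51S), and Plk3 and Plk2 lie close to background in several groups.

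For several list genes with signals well above background the arrays of some groups did not overlap, Atr and Mre11a among them. Atr and Mre11a passed no threshold in any comparison, and how often all probe sets separate in this way was not counted. From such genes, the stretches before the start sites of Ddit4, Sesn2, Sesn1 and Cdkn1a are shown as examples (Zmat3 and Rad50 had no entry). Each is the 250 bases before a start site in the RefSeq promoters of build GRCm38.p6, 5′ to 3′ on the strand of the gene, and capitals mark matches on either strand to the p53 decamer, to ACGTG, the core bound by hypoxia factors, or to CCAAT, bound by NF-Y. Ddit4 lies at chr10:59951771-59952020 (minus strand), Sesn2 at chr4:132510457-132510706 (minus), the second start of Sesn1 at chr10:41887189-41887438 (plus) and the first start of Cdkn1a at chr17:29090729-29090978 (plus).
Ddit4: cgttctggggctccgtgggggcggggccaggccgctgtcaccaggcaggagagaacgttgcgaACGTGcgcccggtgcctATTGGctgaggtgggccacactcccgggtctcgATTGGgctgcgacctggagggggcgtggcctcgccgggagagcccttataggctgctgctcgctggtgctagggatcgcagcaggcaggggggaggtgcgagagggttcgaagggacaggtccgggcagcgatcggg
Sesn2: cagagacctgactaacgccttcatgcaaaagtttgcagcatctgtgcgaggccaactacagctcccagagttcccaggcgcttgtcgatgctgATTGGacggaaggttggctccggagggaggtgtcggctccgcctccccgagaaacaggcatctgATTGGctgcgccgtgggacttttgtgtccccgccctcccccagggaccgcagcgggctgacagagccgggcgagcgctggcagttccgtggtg
Sesn1: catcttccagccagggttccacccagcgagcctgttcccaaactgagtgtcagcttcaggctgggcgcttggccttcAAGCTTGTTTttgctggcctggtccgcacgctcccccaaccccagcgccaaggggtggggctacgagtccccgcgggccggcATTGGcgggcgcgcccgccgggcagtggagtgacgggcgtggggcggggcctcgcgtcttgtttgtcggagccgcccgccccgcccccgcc
Cdkn1a: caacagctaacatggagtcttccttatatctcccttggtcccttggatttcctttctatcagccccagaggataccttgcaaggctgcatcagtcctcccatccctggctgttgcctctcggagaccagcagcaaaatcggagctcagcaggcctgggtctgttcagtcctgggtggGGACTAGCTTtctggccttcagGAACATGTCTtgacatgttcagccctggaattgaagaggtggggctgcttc

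The p53 decamer matched Cdkn1a at positions -73 and -51 and Sesn1 at -173, counted back from the start. It did not match in the windows of Ddit4 or Sesn2, which have 1 start each. Sesn1 and Cdkn1a have 2 starts each, and the start shown was picked for holding the decamer. Their other starts lacked it, so their windows and those of Ddit4 and Sesn2 were not chosen alike. Over the list, 31 of the 42 genes had 36 windows, and 9 genes held the decamer, with 7.13% of all 32851 windows holding it: Aen, Ccng1, Cdkn1a, Ei24, Gadd45a, Mdm2, Polk, Sesn1 and Trp53. ACGTG was in the window of Ddit4 at -187 and in 12 of the 36 windows, against 16.6% of all. CCAAT was in both Ddit4 and Sesn2 and in 19 of the 36 windows, against 33.8% of all. TTTACGA, a core bound by the HOX13 class, was in 1 window, that of Fas (0.478% of all), and TGATTNAT, a joint PBX and HOX element, was in none (2.82% of all). A match is a description of letters only.

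Cdkn1a encodes p21, the inhibitor of cyclin-dependent kinases through which p53 halts the cell cycle. Its signals were 2144, 1952 and 2136 in ND13, 1368, 1074 and 1651 in NA10 and 1539, 969 and 2203 in ND13(N51S), against 883, 1225 and 1736 in the GFP control. The 3 ND13 arrays were close together and above all GFP control arrays, and the other groups spread widely. Cdkn1a was 1.68-fold higher in ND13 than in the GFP control (log2 change 0.75 ± 0.30, unadjusted p = 0.0267, limma adjusted p = 0.769). Without GFP control replicate 1 the change was 0.51, and it did not pass (unadjusted p = 0.133), nor did it without both arrays in doubt (0.51, unadjusted p = 0.0528), ND13 replicate 1 or 3, or GFP control replicate 2. The changes were 0.12 ± 0.30 in NA10 and 0.27 ± 0.30 in ND13(N51S). A second probe set, less bright, gave 0.32, 0.04 and -0.79 in the same order, and opposed the first in ND13(N51S). It passed the unadjusted thresholds as higher in ND13 (1.11, unadjusted p = 0.0102) and in NA10 (0.82, unadjusted p = 0.0444) than in ND13(N51S).

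Plk2 and Plk3 encode polo-like kinases that p53 induces and that act on the G1 phase and on the stress response. Plk3 had signals of 136, 125 and 67.5 in ND13, of 76.6, 72.2 and 92.6 in NA10 and of 27.5, 12.5 and 69.9 in ND13(N51S), against 50.1, 37.5 and 18.4 in the GFP control. All NA10 arrays lay above all ND13(N51S) and GFP control arrays, and ND13 replicate 3 was below its own array's background of 69.8. Plk3 was 2.99-fold higher in ND13 and NA10 than in the GFP control and ND13(N51S) (log2 change 1.58 ± 0.44, unadjusted p = 0.00335, limma adjusted p = 0.363). In ND13 alone against the GFP control the change was 1.69 ± 0.63, in NA10 it was 1.30 ± 0.63 (unadjusted p = 0.0585), and in ND13(N51S) it was -0.17 ± 0.63. The change over all 4 groups was 1.43 without both arrays in doubt (unadjusted p = 0.00436) and passed the unadjusted thresholds whichever array was left out, but that of ND13 against the GFP control did not pass without ND13 replicate 1 or 2 or GFP control replicate 3 (1.28 to 1.56). Against ND13(N51S) Plk3 was higher by 1.86 in ND13 (unadjusted p = 0.0106) and by 1.47 in NA10 (unadjusted p = 0.035). These were, without both arrays in doubt, 1.26 in ND13 (unadjusted p = 0.049) and 0.87 in NA10, which no longer passed (unadjusted p = 0.155). These are small signals near background.

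Plk2 was higher in the DNA-binding mutant as well. It had 153, 126 and 73.3 in ND13, 48.7, 24.6 and 136 in NA10 and 188, 104 and 199 in ND13(N51S), against 30.3, 29.1 and 68.3 in the GFP control. ND13(N51S) and ND13 lay above the GFP control on every array, ND13 replicate 3 only just. The change was 2.00 ± 0.60 in ND13(N51S) (unadjusted p = 0.00495, limma adjusted p = 0.48) and 1.52 ± 0.60 in ND13 (unadjusted p = 0.024), but without both arrays in doubt ND13 gave 1.33 (unadjusted p = 0.0704). The change in ND13(N51S) passed whichever array was left out, and was 2.12 without both arrays in doubt (unadjusted p = 0.0141). NA10 was lower than ND13(N51S) by a log2 change of -1.52 ± 0.60, its 3 arrays spread from 24.6 to 136, and by -0.95 with NA10 replicate 2 left out. That difference was -1.82 without both arrays in doubt (unadjusted p = 0.019). It did not pass with every single array left out (highest unadjusted p = 0.127).

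Of the other 4 cell cycle targets, Gadd45a alone passed the unadjusted thresholds, in 1 comparison. Ccng1, a cyclin that feeds back on p53 through Mdm2, changed by -0.43 ± 0.24 in ND13, 0.06 in NA10 and -0.12 in ND13(N51S) against the GFP control, and its 3 probe sets gave -0.43, -0.51 and -0.23 in ND13. Gadd45b, a stress sensor that acts on kinases of the p38 pathway, changed by 0.28, -0.45 and -0.50 with an SE of 0.54. Gadd45a and Gadd45g lay close to background, with signals of 7.62 to 114 and 4.25 to 120. Gadd45a was lower in ND13 than in ND13(N51S) (unadjusted p = 0.0311), and since no ND13 array was above background it is given as at least 1.5-fold lower, a bound that sets the ND13 arrays at their background. It no longer passed without both arrays in doubt (unadjusted p = 0.0938).

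Among the cell death targets, Zmat3, an RNA-binding protein that p53 induces, differed in sign between the 2 active fusions. Its signals were 258, 165 and 153 in ND13, 658, 341 and 468 in NA10 and 305, 286 and 318 in ND13(N51S), against 271, 182 and 439 in the GFP control. NA10 arrays all lay above the ND13 arrays, and the GFP control overlapped both groups. The change was 0.76 ± 0.34 in NA10 (unadjusted p = 0.0431, limma adjusted p = 1.0, and 0.45 without GFP control replicate 2) and -0.58 ± 0.34 in ND13 (unadjusted p = 0.111) against the GFP control. The change in NA10 was 0.74 without both arrays in doubt and no longer passed (unadjusted p = 0.0878). Against ND13(N51S) Zmat3 changed by -0.69 in ND13 (unadjusted p = 0.0606) and by 0.64 in NA10 (unadjusted p = 0.0802), and both passed the unadjusted thresholds with the replicate block (unadjusted p = 0.0317 in ND13 and 0.0444 in NA10). The difference between ND13 and NA10 was not among the comparisons tested.

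Pmaip1, also known as Noxa, a trigger of mitochondrial apoptosis, was at 295, 559 and 454 in ND13, above all GFP control arrays at 260, 160 and 255, with a change of 0.94 ± 0.47 (unadjusted p = 0.0674). With the replicate block it passed those thresholds (unadjusted p = 0.0403, limma adjusted p = 0.562). Phlda3, which inhibits Akt, was lower in ND13 than in ND13(N51S) (-0.85 ± 0.37, unadjusted p = 0.0363), a value of -0.33 with ND13 replicate 3 left out and of -0.91 without both arrays in doubt, where it no longer passed (unadjusted p = 0.0549). Aen, an exonuclease of apoptotic cells, was lower in ND13(N51S) than in the GFP control (-0.60 ± 0.27, unadjusted p = 0.0411), and without both arrays in doubt gave -0.46 (unadjusted p = 0.149). Its dimmer probe sets parted there, at -0.94 (unadjusted p = 0.142) and 1.06 (unadjusted p = 0.0614). The one that was higher also gave 0.96 in ND13 and 0.93 in NA10. Perp, a membrane protein of p53-driven apoptosis, changed by 0.63 in ND13, 0.50 in NA10 and 0.42 in ND13(N51S) with an SE of 0.42. Ei24, another target linked to autophagy, changed by at most 0.17 in size against the GFP control. The death receptor genes Fas and Tnfrsf10b were dim, with Fas above background on 1 of 12 arrays and Tnfrsf10b on 6 of 12.

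The p53 targets of DNA repair, Ddb2 and Xpc, which recognise ultraviolet damage, Polk, a translesion polymerase, and Rrm2b, a subunit of ribonucleotide reductase, gave 0 of 4 genes past the unadjusted thresholds in any comparison by their brightest probe sets. The second Ddb2 probe set, with a mean signal of 201 beside 225, passed as higher in ND13 (0.63, unadjusted p = 0.0288) and in NA10 (0.67, unadjusted p = 0.0211) than in ND13(N51S). Polk was highest of them, with changes of 0.50 ± 0.28 in ND13 and 0.58 ± 0.28 in NA10 against the GFP control, though its dimmer probe set gave -0.30 and 0.03.

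The 5 damage kinases had median changes of -0.152, -0.133 and -0.0796 against the GFP control in ND13, NA10 and ND13(N51S). Atm, the kinase that senses double-strand breaks, had signals of 498, 574 and 418 in ND13, of 682, 421 and 488 in NA10 and of 618, 382 and 447 in ND13(N51S), against 850, 764 and 567 in the GFP control. Its changes were -0.54 ± 0.26, -0.46 ± 0.26 and -0.60 ± 0.26, and ND13(N51S) alone passed both thresholds (unadjusted p = 0.0384). GFP control replicate 1, one of the arrays in doubt, held the highest value, and without both such arrays the ND13(N51S) change was -0.32 (unadjusted p = 0.291). Atr, which senses stalled forks, gave -0.34, -0.38 and -0.30 with an SE of 0.20. The checkpoint kinases Chek1 and Chek2 and the catalytic subunit of DNA-PK, Prkdc, changed by less than 0.2 in size in all 3 comparisons with the GFP control. A dimmer Chek1 probe set, with a mean signal of 610 beside 1263, gave lower values in all 3, with changes of -0.77, -0.64 and -0.88, and passed the unadjusted thresholds in ND13 (unadjusted p = 0.0236) and ND13(N51S) (unadjusted p = 0.0118).

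**Figure D3:**
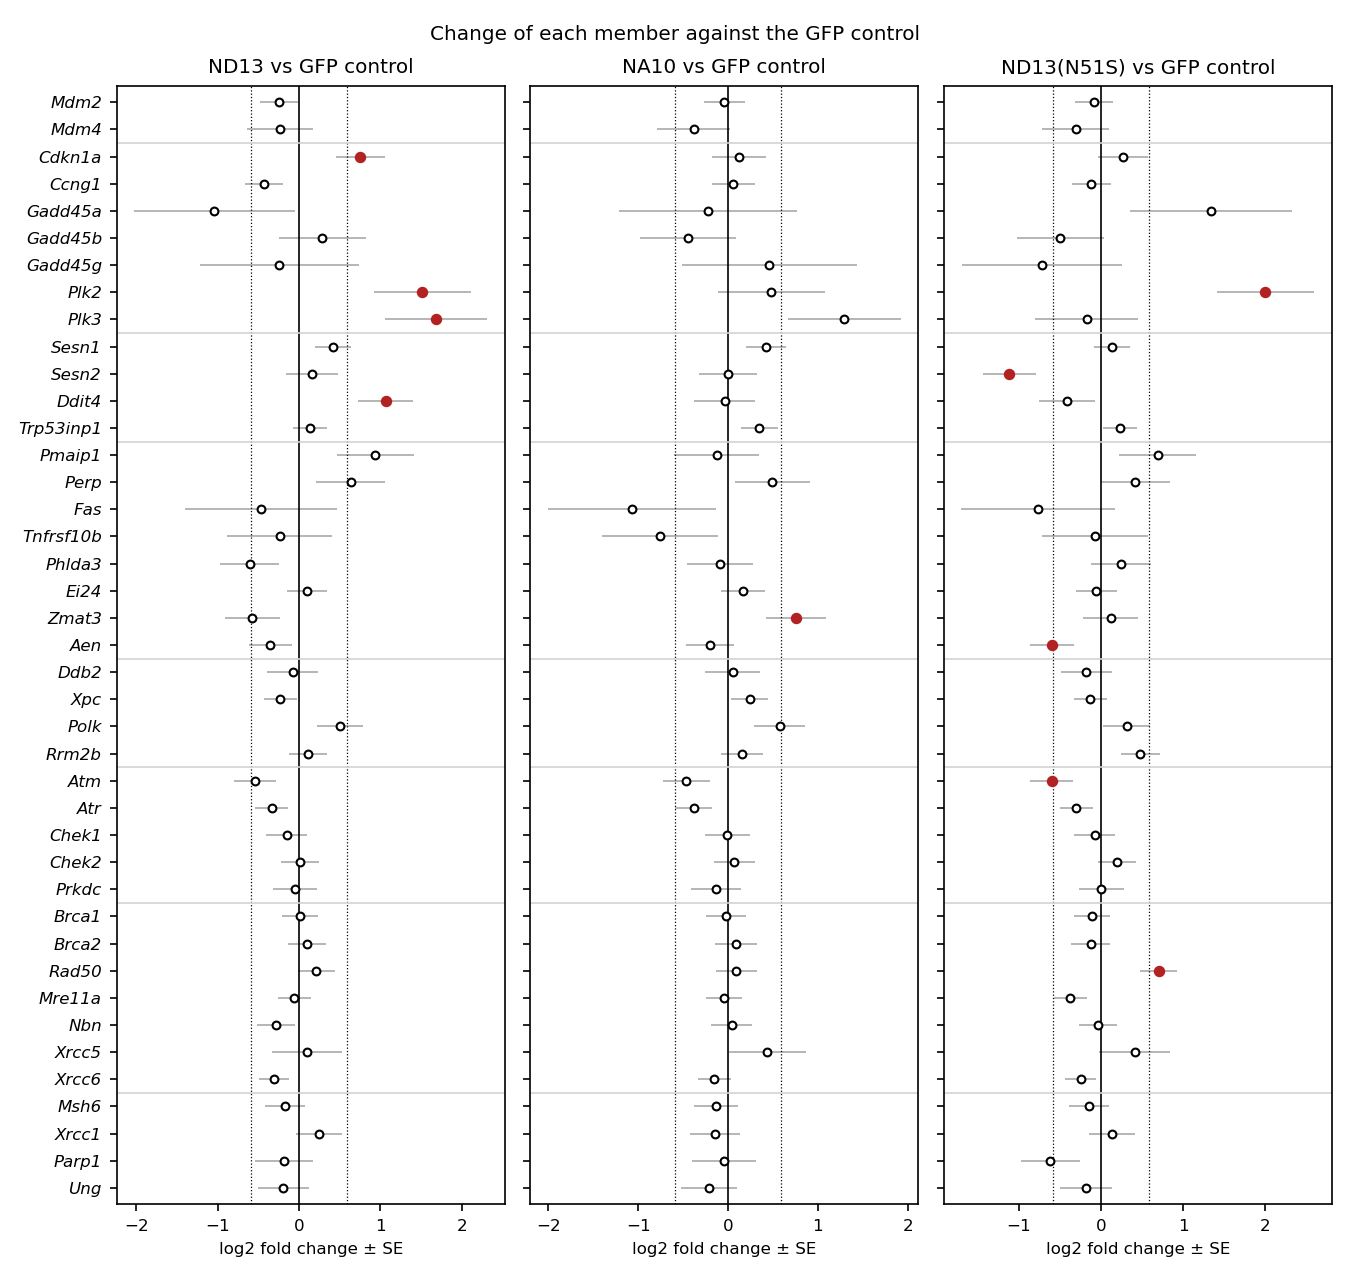
Log2 fold change against the GFP control (± SE, limma) of all 41 genes in ND13, NA10 and ND13(N51S), ordered by role from the regulators at the top to mismatch repair at the bottom. Dotted lines mark 1.5-fold, and filled red points passed the unadjusted thresholds: 4 in ND13, 1 in NA10 and 5 in ND13(N51S).

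Of the 7 genes for double-strand break repair, Rad50, part of the complex with Mre11a and Nbn that holds broken ends, was the one that passed the unadjusted thresholds. Its signals were 882, 967 and 1259 in ND13, 951, 805 and 1098 in NA10 and 1243, 1871 and 1274 in ND13(N51S), against 754, 1043 and 878 in the GFP control. The ND13(N51S) arrays were all above the GFP control and NA10 arrays, with replicate 2, whose RNA is in doubt, far above the rest. Rad50 was 1.62-fold higher in ND13(N51S) than in the GFP control (log2 change 0.70 ± 0.23, unadjusted p = 0.00892, limma adjusted p = 0.535). It was lower in NA10 than in ND13(N51S), by -0.61 ± 0.23. Without both arrays in doubt the changes were 0.40 and -0.42, with neither past 1.5-fold. A dimmer probe set gave -0.05 in ND13(N51S) against the GFP control and -0.88 in NA10 against ND13(N51S) (unadjusted p = 0.0897). Mre11a and Nbn, its partners in that complex, gave -0.37 and -0.04 in ND13(N51S). The tumour suppressors Brca1 and Brca2 of homologous recombination and the end-joining subunits Xrcc5 and Xrcc6, which form the Ku dimer, changed by -0.31 to 0.44 in the comparisons with the GFP control. A dim second probe set of Brca1 was lower in ND13 than in ND13(N51S) (-0.71, unadjusted p = 0.0371).

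Base excision and mismatch repair had 0 of 4 genes past the unadjusted thresholds in every comparison by their brightest probe sets. Msh6, which reads mismatches, and Ung, which removes uracil, and Xrcc1, a scaffold, changed by at most 0.24 in size against the GFP control. Parp1, a sensor of single-strand breaks, was at 1405, 627 and 2182 in ND13(N51S), with the low value on replicate 2, against 1657, 1931 and 2170 in the GFP control. Its change of -0.62 ± 0.36 became -0.23 without both arrays in doubt, and with the replicate block it passed both thresholds (unadjusted p = 0.0331), as did a second probe set without the block (-0.71, unadjusted p = 0.0483).

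**Figure D4:**
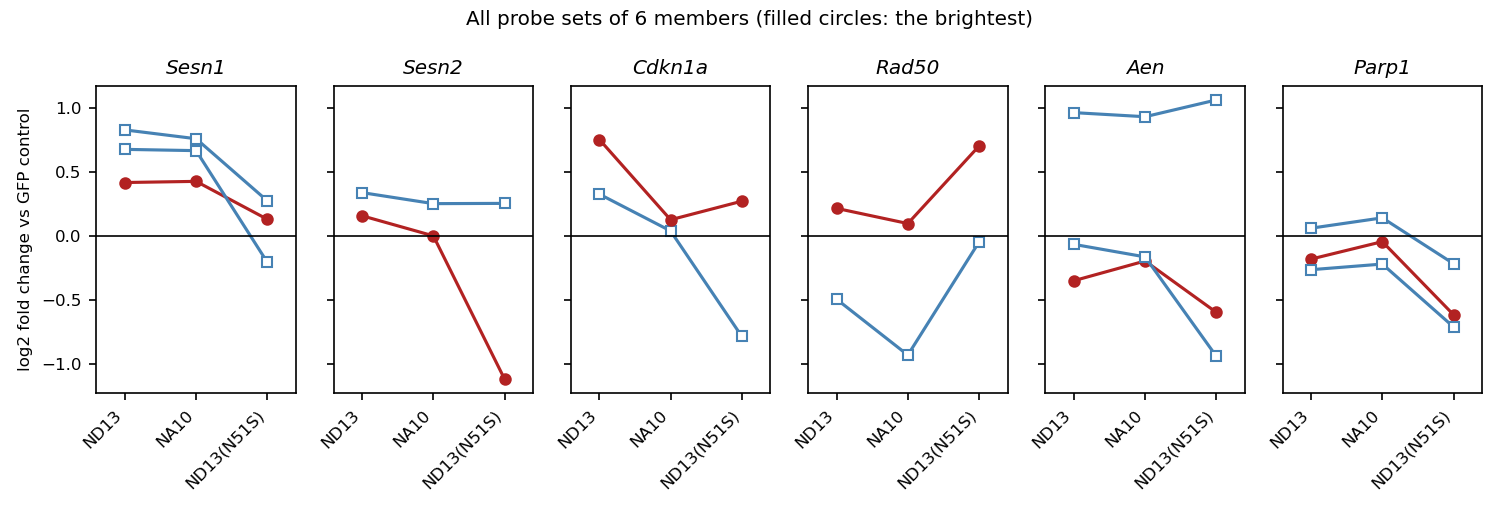
Log2 change against the GFP control for each probe set of 6 genes, with red circles for the brightest probe set, which stands for the gene, and open blue squares for the others. The 3 Sesn1 probe sets run together in ND13 and NA10, while those of Sesn2, Cdkn1a, Rad50 and Aen part in ND13(N51S). Those of Rad50 and Aen part in ND13 and NA10 as well.

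A list of 40 further genes of the p53 pathway, 33 of them measured, held 4 higher and 0 lower in ND13 at the unadjusted thresholds, 1 and 0 in NA10 and 4 and 0 in ND13(N51S), and 3, 1 and 3 higher without both arrays in doubt. Ier3, an early response gene linked to survival, was the one gene of that list that passed after adjustment. Ier3 is also one that the study itself picked out from these arrays, so its direction is no independent evidence. Its signals were 7269, 6400 and 3951 in ND13, 3618, 3107 and 2323 in NA10 and 2749, 2892 and 3550 in ND13(N51S), against 2235, 2097 and 2131 in the GFP control, so that every array of the 3 fusion groups lay above the control. Ier3 was 2.64-fold higher in ND13 than in the GFP control (limma adjusted p = 0.0366), but the adjusted p was 0.143 without GFP control replicate 1, 0.122 without both arrays in doubt and 0.268 without ND13 replicate 1, and ran from 0.0133 to 0.598 over all alternatives. Btg2, an antiproliferative p53 target, had changes of 0.98 in ND13, -0.08 in NA10 and 0.96 in ND13(N51S), and Dusp1, a phosphatase induced by stress, of 1.91, 1.6 and 1.89.

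Other DNA repair and checkpoint genes, with 45 of 60 measured, gave 1 higher and 0 lower in ND13, 1 and 1 in NA10 and 1 and 2 in ND13(N51S), and 1 and 0, 0 and 1, and 1 and 0 without both arrays in doubt. Of 12 measured genes of fluorouracil and thymidylate metabolism only Upp1, uridine phosphorylase, passed, higher in ND13 by 1.04 ± 0.34 (unadjusted p = 0.00911), and without both arrays in doubt 1 gene was higher in ND13 and 1 in ND13(N51S). S phase genes had 0 of 19 past the thresholds in ND13 and in NA10, and 4 lower in ND13(N51S), among them Cdc6, which licenses replication origins, at -0.85. Leaving out both arrays in doubt, 1 was lower in ND13, 0 in NA10 and 2 in ND13(N51S). Genes of G2 and mitosis gave 0 of 19 in ND13 and in NA10 and 1 lower, Cenpe, in ND13(N51S), which became 0 without both arrays in doubt. Macrophage markers passed as higher in 4 of 8 genes in ND13, 3 in NA10 and 5 in ND13(N51S), and mast cell and basophil markers in 1, 1 and 4 of 5. Without both arrays in doubt these became 4, 3 and 8 of 8 and 0, 0 and 3 of 5. The part of these cell types in the values above was not tested.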

How the data were processed

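The deposited values were array intensities, MAS5 signals on a linear scale that the authors had scaled to a common trimmed mean, from 100 ng of RNA per the labels (50 ng in the array records of GFP control replicate 1 and NA10 replicate 1, the 2 records used here) and double amplification. The study's own normalisation by GC-RMA was not used here, since the deposited intensities are MAS5 signals. No sample was left out and no column was without a sample. Of 22690 probe sets, 64 controls were removed. Signals were floored at 0.01, which 0 signals reached, taken to log2 and fitted in limma 3.58.1 (R 4.3.3) as 4 group means over 12 arrays, with moderated variances (trend, robust) and Benjamini-Hochberg adjustment over 22626 probe sets. Unless another setting is named beside them, p-values come from that fit, and they measure the spread between 3 experiments per group. A call is an adjusted p below 0.05 and 1.5-fold. The fit was tested on simulated data. Gene names follow the platform annotation, in which 20380 probe sets had 1 gene, 691 several and 1555 none. A gene is its brightest probe set, and bounds use each array's background.

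Arrays with the same replicate number deviated together: the correlation of their deviations from group means ran from 0.106 to 0.596 over the 11313 brighter probe sets for all 18 pairs, and all 12 arrays were closest to their own number, so that the replicate number was taken to pair the arrays and was fitted as a block in an alternative. Also tried were leaving out dim probe sets, an offset of 32, quantile normalisation, median centring, plain eBayes, separate fits per comparison, the methods' t-test, means over probe sets, leaving out genes below background, and leaving out arrays. The list of genes and the other gene lists were chosen with earlier results of these data known. Every gene of the list may be named by role. Values on every array are given for Mdm2, Cdkn1a, Sesn1 and the 3 genes of smallest unadjusted p in each comparison among those past the thresholds, and for other lists at most 4 genes were named. Atm, Pmaip1, Parp1 and Ier3 are given by array as additions after their values were seen.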

Additional observations from a re-analysis of the deposited data

How the results depend on the processing

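No list gene was called after adjustment under any alternative. At the unadjusted thresholds, the count of list genes in ND13 against the GFP control, 4 in the main fit, was 2 with dim probe sets left out and 2 by the methods' t-test. In NA10 against the GFP control, 1 in the main fit, it was 2 with the offset, 0 with quantile normalisation, 0 with plain eBayes and 2 with means over probe sets. In ND13(N51S) against the GFP control, 5 in the main fit, it was 3 with the offset, 3 with quantile normalisation, 3 with plain eBayes, 3 with separate fits, 3 by the methods' t-test, 3 with means over probe sets and 1 without both arrays in doubt. Against ND13(N51S), ND13 had 3 in place of 5 with dim probe sets left out and 3 without both arrays in doubt, and NA10 had 2 in place of 4 with dim probe sets left out, 1 by the methods' t-test and 2 without both arrays in doubt. With both active fusions pooled the methods' t-test gave 1 in place of 3. The median log2 change in ND13(N51S) against the GFP control was -0.195 with median centring, in place of -0.08. The causes were not tested.

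Leaving out 1 array at a time gave 2 to 5 list genes in ND13, 0 to 2 in NA10 and 2 to 6 in ND13(N51S) against the GFP control, and 3 to 6 in ND13 and 2 to 5 in NA10 against ND13(N51S). Counts moved by over 1.5 times without ND13 replicate 2 or GFP control replicate 1 (2 genes in ND13 against the GFP control), without ND13(N51S) replicate 2 (2 in ND13(N51S) against the GFP control, 3 in ND13 and 2 in NA10 against ND13(N51S)), without GFP control replicate 1 or 2 (3 in ND13(N51S)) and without NA10 replicate 1 (2 in NA10 against ND13(N51S)). In NA10 against the GFP control the count was 0 without ND13 replicate 2, NA10 replicate 3 or ND13(N51S) replicate 1, and 2 without NA10 replicate 2, ND13(N51S) replicate 2 or GFP control replicate 2 or 3. The median of ND13 against ND13(N51S) ran from -0.0513 (without ND13 replicate 2) to 0.0695. Of the 22 pairs of gene and comparison past the unadjusted thresholds, 22 stayed past them with the replicate block, 11 without both arrays in doubt, 10 by the methods' t-test and 15 with means over probe sets, and none changed sign in any alternative. The pairing by replicate number (the block) changed no call, with 5 against 4 list genes in ND13 and 6 against 5 in ND13(N51S) against the GFP control, and 6 against 5 in ND13 and 5 against 4 in NA10 against ND13(N51S), where Zmat3 was added in both. The block also raised the counts of all 22626 probe sets past the unadjusted thresholds. It gave 915 higher and 443 lower in ND13 against the GFP control, in place of 777 and 339. In ND13(N51S) it gave 1160 and 763 in place of 988 and 560. Against ND13(N51S) it gave 942 and 976 in ND13 (725 and 856 without it) and 870 and 1257 in NA10 (666 and 1098 without it). Over all probe sets it called 62 higher and 5 lower in ND13 against the GFP control, where the fit without it called 19 and 1, and 8 and 1 against 3 and 0 in NA10, 3 and 3 against 0 and 0 in ND13(N51S), 14 and 4 against 3 and 0 in ND13 and 9 and 1 against 1 and 1 in NA10 set against ND13(N51S), and 20 and 3 against 8 and 0 with both fusions pooled. With median centring 6 and 0 were called in ND13 against ND13(N51S). A signal near background, as for Plk3, Plk2, Gadd45a and Fas, limits what the arrays can resolve.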

Other observations

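Lists of markers not described above gave the following counts at the unadjusted thresholds against the GFP control. Stem and progenitor markers were higher in 2 of 6 genes in ND13, 2 in NA10 and 0 in ND13(N51S). These were Flt3 and Procr, which the study itself picked out from these arrays, so their pattern is no independent evidence. Megakaryocyte markers were higher in 1 of 5 genes in ND13, 2 in NA10 and 3 in ND13(N51S). Neutrophil markers were higher in 0 of 8 genes in ND13, 1 in NA10 and 0 in ND13(N51S), and erythroid markers in 0, 0 and 1 of 6. B cell markers were lower in 0, 1 and 0 of 6 genes, T cell markers in 1, 0 and 0 of 6, and fibroblast markers were higher in 0, 1 and 0 of 7. Without both arrays in doubt the higher counts in ND13, NA10 and ND13(N51S) were 2, 2 and 0 for stem and progenitor, 1, 2 and 2 for megakaryocyte, 0, 0 and 0 for neutrophil, 0, 0 and 0 for erythroid, 1, 1 and 2 for T cell and 0, 1 and 0 for fibroblast markers, and 2 fibroblast markers were lower in ND13.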
